A study of Mus musculus with 54 samples.

Results

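The genes described here encode the carriers that move amino acids across cell membranes: the members of the Slc1, Slc3, Slc6, Slc7, Slc36 and Slc38 families. They were chosen by gene symbol alone, from the table of E16.5 epithelial and PDGFRA-sorted cells, and followed by gene identifier into the other tables of the series. The symbols picked out 48 of the 16901 genes of that table. Of these, 46 are transporter genes, which include carriers of monoamines, creatine and taurine, and 2 are neighbours on the opposite strand that share the name: Slc6a19os, a long non-coding RNA gene, and Slc7a6os, a coding gene. All 48 are accounted for; 36 of them passed the filter on low values and were tested in that table, 25 of 41 present were tested in the table of CD29-sorted cells, 35 of 42 in the table with the Porcupine inhibitor and 27 of 35 at E13.5.

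In the mature small intestine, enterocytes take up free amino acids at the brush border and hand them on to the blood through a different set of carriers in the basolateral membrane. The apical set includes the exchanger built from Slc3a1 (the heavy chain rBAT) and Slc7a9 (its light chain), which brings in cystine and dibasic amino acids, and the sodium-coupled carriers of neutral amino acids (Slc6a19) and proline (Slc6a20a). The basolateral set includes Slc7a7 and Slc7a8, light chains that both pair with Slc3a2, the CD98 heavy chain. Dividing cells of every kind also use glutamine carriers such as Slc1a5, Slc38a1 and Slc38a2, and several carriers sit on lysosomes, where Slc38a9 senses arginine for the kinase complex mTORC1.

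RNA was sequenced from cells sorted from the small intestine of mouse embryos, in 54 libraries that form 20 groups, 17 of them with 3 libraries and 3 with 1 library. LGK974-treated EpCAM+ epithelium came from E16.5 embryos of the strain Top.CFP, a Wnt reporter line, whose dams had received 2 doses per day from E12.5 to E16.5 of LGK974. This compound inhibits Porcupine, the enzyme that Wnt ligands need for secretion. There were 3 libraries each of the distal, mid and proximal gut. Vehicle-treated Top.CFP embryos gave 1 library per region. All other libraries came from untreated C57Bl/6J embryos: at E16.5, EpCAM+ epithelium, PDGFRA-HIGH cells, PDGFRA-MED cells and CD29-HIGH cells, each as 3 libraries of the distal, mid and proximal gut, and at E13.5, EpCAM+ epithelium of the distal and proximal gut with 3 libraries each. Every sort excluded dead, CD31+ and CD45+ cells; PDGFRA-HIGH and PDGFRA-MED cells differ in PDGFRa at a medium CD29 level, and CD29-HIGH cells have medium PDGFRa. The treated embryos differ from the untreated ones in strain as well as in treatment, so that strain and treatment cannot be told apart except against the 3 vehicle libraries.

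The libraries held 15072991 to 26658039 reads on genes, so that 1 RPKM (reads per kilobase of gene model, scaled to the size of the library) of a 1-kb model stood for 14.8 to 26.7 reads, and members under about 0.1 RPKM rest on a few reads. The sort labels held: 8 epithelial markers summed to 1852 to 2381 RPKM in E16.5 EpCAM+ libraries, against 2.27 to 27.4 in PDGFRA-HIGH, 5.78 to 42.0 in PDGFRA-MED and 5.43 to 19.1 in CD29-HIGH libraries. Smooth muscle markers summed to 16050 to 27940 RPKM in CD29-HIGH cells against 238 to 388 in PDGFRA-MED cells. Markers of another tissue were present in proximal epithelium. All 8 pancreatic acinar markers were detected in untreated proximal E16.5 epithelium, where they summed to 1984 to 4076 RPKM, against 1.26 to 4.90 in distal epithelium, where Prss2 and Ptf1a were at 0. The vehicle library of the proximal gut had 1.02 RPKM, with Amy2a5, Cpa1, Prss2, Cel and Ptf1a at 0, and LGK974 proximal libraries had 5.12 to 10.7. This bears on every member that was high in proximal epithelium. Among mesenchymal libraries, blood markers reached 220 to 3360 RPKM in proximal PDGFRA-MED cells, against 83.2 to 191 in distal PDGFRA-MED cells.

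Promoters are shown for 3 genes on which the results turn: the partners of the apical exchanger, Slc3a1 and Slc7a9, and the basolateral light chain Slc7a7. Each line gives the 250 bases before and 50 bases after the most upstream of the gene's starts in a RefSeq promoter table on GRCm38.p6, in the direction of transcription. The gene spans of Slc7a9 and Slc7a7 given further on begin farther upstream than these starts. They lie at chr17:85028097-85028396 on the plus strand (Slc3a1), chr7:35448842-35449141 on the plus strand (Slc7a9) and chr14:54417895-54418194 on the minus strand (Slc7a7). Capitals mark runs of 4 letter patterns searched on both strands: CAAAGTC, part of the motif of the HNF4 factors of the gut and liver, GATAAG, bound by GATA factors, TATAAA, the TATA box, and TGATGCAA, the core of the amino acid response element.
Slc3a1: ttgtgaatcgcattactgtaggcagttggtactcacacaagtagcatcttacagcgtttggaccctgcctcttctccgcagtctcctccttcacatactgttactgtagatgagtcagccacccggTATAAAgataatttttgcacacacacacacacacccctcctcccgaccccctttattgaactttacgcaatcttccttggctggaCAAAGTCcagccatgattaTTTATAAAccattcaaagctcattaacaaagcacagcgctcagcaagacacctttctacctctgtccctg
Slc7a9: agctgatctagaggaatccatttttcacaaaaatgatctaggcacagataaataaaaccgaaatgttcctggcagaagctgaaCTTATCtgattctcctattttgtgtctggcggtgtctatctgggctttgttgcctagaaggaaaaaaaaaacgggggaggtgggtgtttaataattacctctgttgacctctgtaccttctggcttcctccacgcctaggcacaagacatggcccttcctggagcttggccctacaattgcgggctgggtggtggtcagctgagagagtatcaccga
Slc7a7: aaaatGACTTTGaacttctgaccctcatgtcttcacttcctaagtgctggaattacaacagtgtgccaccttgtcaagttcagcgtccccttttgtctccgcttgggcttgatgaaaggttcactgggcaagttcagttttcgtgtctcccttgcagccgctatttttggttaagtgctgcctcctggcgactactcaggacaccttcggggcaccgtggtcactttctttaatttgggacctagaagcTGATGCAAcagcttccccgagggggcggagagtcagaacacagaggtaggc
The Slc3a1 window held CAAAGTC and, at separate places, TATAAA alone and as a longer run in which it overlaps itself on the opposite strand. The Slc7a9 window held GATAAG, read here as CTTATC, and the Slc7a7 window held CAAAGTC, read as GACTTTG, and TGATGCAA. These letters occur in 4.44% (CAAAGTC), 7.44% (GATAAG), 13.6% (TATAAA) and 0.895% (TGATGCAA) of all 32851 promoter windows of that length, and in 2, 6, 4 and 4 of the 51 windows of the 37 members that matched the table. The 4 windows with TGATGCAA belonged to Slc1a4, Slc7a7 and Slc7a11. A match is a run of letters and not a measured binding site.

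The order of levels, which RPKM allows because it is per length, differed from sort to sort. In E16.5 epithelium the 8 highest members were Slc3a2 (41.9 ± 7.75 RPKM, SD, n = 9 libraries over 3 regions), the glutamine carrier Slc38a1 (36.8 ± 3.64), Slc7a8 (34.8 ± 9.21), and Slc7a9 (33.3 ± 5.29), then the taurine carrier Slc6a6 (28.1 ± 3.03), Slc3a1 (26.0 ± 7.4), Slc38a10, a member without a settled role (23.3 ± 2.13), and Slc38a2 (22.4 ± 2.56). Neighbours in this order lay within the larger of their SDs. In PDGFRA-HIGH cells Slc38a2, the small neutral amino acid carrier that cells induce when amino acids run short, stood at 78.5 ± 4.47 RPKM, above Slc6a6 (30.1 ± 7.88), Slc38a10 (21.5 ± 2.29), Slc38a4 (16.3 ± 2.09) and Slc3a2 (15.4 ± 1.28). In PDGFRA-MED cells Slc38a2 (53.5 ± 6.12) and Slc38a4, an imprinted neutral amino acid carrier of the same gene cluster (36.4 ± 4.40), stood above Slc38a10 (18.9 ± 1.52) and Slc3a2 (15.5 ± 1.22). Slc38a2 also led in CD29-HIGH cells (57.6 ± 10.4), followed by Slc38a1 (22.2 ± 2.37), Slc6a6 (18.6 ± 3.03) and Slc6a8, the creatine carrier (16.6 ± 0.595). In E13.5 epithelium, from a table normalised apart from the others, Slc38a2 (43.3 ± 4.61, n = 6) and Slc38a1 (42.7 ± 5.98) lay within 1 SD of each other and above Slc38a10 and Slc3a2 (24.9 ± 1.60). Slc38a1, Slc38a2 and Slc38a4 lie along the same stretch of chromosome 15 (chr15:96571418-96643438, chr15:96687392-96699728 and chr15:96994816-97055956).

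The comparison of EpCAM+ epithelium with the mesenchymal sorts asks which carriers mark the epithelium before birth. Apical and basolateral carriers of enterocytes were higher in epithelium at E16.5, and Slc38a2, Slc38a4, the glycine carrier Slc6a9 and Slc36a4, a carrier of proline and tryptophan, were higher in mesenchyme. A gene was called where the 2 sorts differed in the same direction in all 3 regions, by limma's test against a minimum log2 fold change of 0.5 with adjusted p under 0.05. The log2 fold changes of log2(RPKM + 0.5) given are means over regions with their standard errors. The adjusted p printed beside them belongs to that mean. Of the 36 tested members, 18 were higher and 6 lower in epithelium than in PDGFRA-HIGH cells; of all genes tested, 25.5% were higher and 23.6% lower. Against PDGFRA-MED cells, 16 were higher and 9 lower, against 21.4% and 21.3% of all genes. Some members passed the filter on low values only through a single sort, as given below, so that these counts are not independent of it. The shares of all genes rest on the same filter. The median log2 fold change of the members was 0.94 against PDGFRA-HIGH cells and 1.04 against PDGFRA-MED cells, where the medians of all genes were 0.04 and 0.03. In bulk RNA of a sorted population, fewer cells of a type and less RNA per cell cannot be told apart.

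Both chains of the apical exchanger were epithelial. Slc3a1 (chr17:85028347-85064241) had 14.7, 14.9 and 28.5 RPKM in distal, 28.3, 28.0 and 36 in mid and 23.2, 26.8 and 34.0 in proximal epithelium, against 0.223 to 0.823 RPKM in the 9 PDGFRA-HIGH libraries (median 0.455) and 0.311 to 1.72 in the 9 PDGFRA-MED libraries (median 0.442). Its partner Slc7a9 (chr7:35448727-35466034) had 24.8, 26.6 and 38.2 RPKM in distal, 33.6, 38 and 38.8 in mid and 28.7, 34.8 and 35.9 in proximal epithelium, against 0.0528 to 0.730 RPKM in PDGFRA-HIGH (median 0.140) and 0.0722 to 1.34 in PDGFRA-MED libraries (median 0.276). The lowest epithelial library of either chain was far above the highest mesenchymal one, with no overlap. The log2 fold changes against PDGFRA-HIGH cells were 4.69 ± 0.138 for Slc3a1 (adjusted p = 2.06e-17) and 5.6 ± 0.182 for Slc7a9 (adjusted p = 2.18e-16), and those against PDGFRA-MED cells were 4.49 and 5.20. Slc6a19 (chr13:73679745-73700780), the main neutral amino acid carrier of the brush border, reached 1.90 to 17.1 RPKM in epithelium (median 11.0) and at most 0.368 in PDGFRA-HIGH and 0.611 in PDGFRA-MED libraries. The proline carrier Slc6a20a (chr9:123636907-123678832) had 9.22 to 17.0 RPKM in epithelium (median 11.1), against 0 to 0.105 in PDGFRA-HIGH and 0.0223 to 0.973 in PDGFRA-MED libraries. Its neighbouring paralogue Slc6a20b had 1.82 to 3.41 RPKM in epithelium and at most 0.131 in mesenchyme. All of these were called, and 5 of the 7 tested apical members in all were higher in epithelium than in either PDGFRA sort. The others were not called: Slc6a14, a carrier of neutral and cationic amino acids, had 1.21, 1.60 and 1.86 RPKM in distal and at most 0.171 in other epithelium, and Slc36a1, a proton-coupled carrier, had log2 fold changes of 0.49 and 0.62. Slc6a19os, which overlaps the start of Slc6a19 on the opposite strand, was also called, with log2 fold changes of 1.90 and 1.86. Slc6a19, Slc6a20a, Slc6a20b and Slc6a19os passed the filter on low values only through epithelium, so that their calls are not independent of it.

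**Figure D1:**
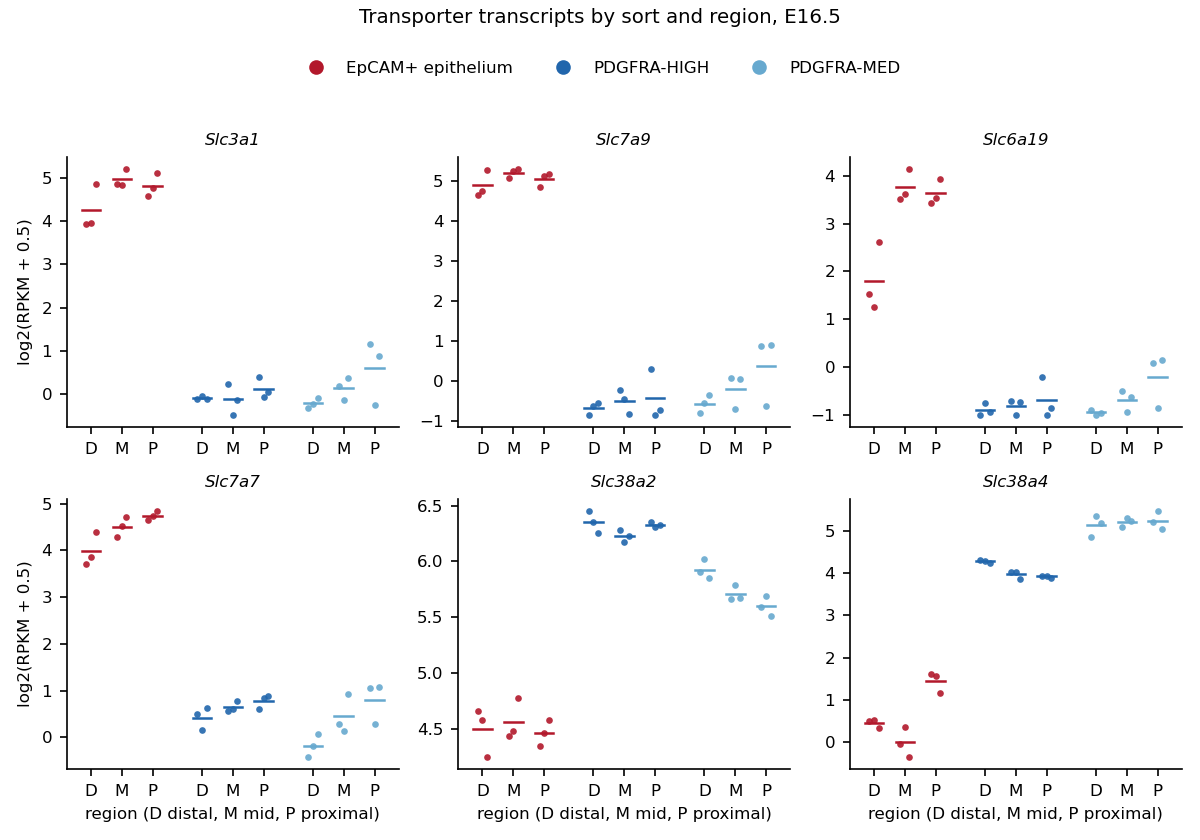
Level of 6 transporter genes, as log2(RPKM + 0.5), in each library of EpCAM+ epithelium, PDGFRA-HIGH and PDGFRA-MED cells at E16.5, by distal (D), mid (M) and proximal (P) gut; points are libraries and dashes are means of 3. Slc3a1, Slc7a9, Slc6a19 and Slc7a7 are high in epithelium and low in both mesenchymal sorts, while Slc38a2 and Slc38a4 run the other way.

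The light chains of CD98 differed in direction. Slc7a8 (chr14:54722215-54781886), the basolateral carrier of neutral amino acids, had 20.0 to 46.7 RPKM in epithelium (median 37.4), against 0.0519 to 0.681 in PDGFRA-HIGH (median 0.178) and 0.9 to 2.55 in PDGFRA-MED cells (median 1.54). The log2 fold changes were 5.53 ± 0.119 (adjusted p = 4.67e-20) and 4.01. Slc7a7 (chr14:54369442-54420068), which exports dibasic amino acids to the blood side, had 12.7 to 28.1 RPKM in epithelium (median 22.4), against 0.611 to 1.35 in PDGFRA-HIGH and 0.248 to 1.60 in PDGFRA-MED cells, and was called with 3.80 ± 0.0918 and 4.06. The heavy chain Slc3a2 (chr19:8706882-8723369) was present in every sort at 29.7 to 49.0 RPKM in epithelium, 13.9 to 18.1 in PDGFRA-HIGH and 13.4 to 17.4 in PDGFRA-MED cells, with log2 fold changes of 1.40 ± 0.0507 and 1.39. Slc7a6 (chr8:106168219-106198714), the close relative of Slc7a7 that most tissues use, ran the other way: it had 3.80 to 4.81 RPKM in epithelium, against 8.79 to 12.47 in PDGFRA-HIGH and 8.14 to 9.33 in PDGFRA-MED cells. The leucine carrier Slc7a5 had 8.16 to 14.3 RPKM in epithelium, 1.98 to 4.95 in PDGFRA-HIGH and 8.17 to 13.1 in PDGFRA-MED cells; it was called against PDGFRA-HIGH cells (1.63 ± 0.102, adjusted p = 7.73e-10) and not against PDGFRA-MED cells (0.25).

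Among glutamine and small neutral amino acid carriers, 3 of 7 were higher and 3 lower in epithelium than in PDGFRA-HIGH cells. Slc38a1 had 32.9 to 42.6 RPKM in epithelium, against 2.63 to 4.53 in PDGFRA-HIGH and 2.88 to 5.92 in PDGFRA-MED cells, a log2 fold change of 3.18 ± 0.102 and 2.96. Its neighbours on chromosome 15 ran in the opposite direction. Slc38a2 had 18.6 to 27 RPKM in epithelium, 71.5 to 86.8 in PDGFRA-HIGH and 45.1 to 64.4 in PDGFRA-MED cells (-1.79 ± 0.0561 and -1.23). Slc38a4 had 0.284 to 2.55 RPKM in epithelium, 14.0 to 19.4 in PDGFRA-HIGH and 28.6 to 43.6 in PDGFRA-MED cells (-3.43 ± 0.0690, adjusted p = 2.64e-20, and -4.57 ± 0.0690, adjusted p = 1.38e-22). The glutamine carrier Slc1a5 (chr7:16781334-16798274) had 11.8 to 19.6 RPKM in epithelium, 4.70 to 7.01 in PDGFRA-HIGH cells and 3.70 to 11.9 in PDGFRA-MED cells. It was called against PDGFRA-HIGH cells (1.33 ± 0.104, adjusted p = 1.47e-07), though not in all 3 regions once PDGFRA-HIGH proximal 3 or EpCAM proximal 2 was left out (mean of 1.29 each). Against PDGFRA-MED cells its 1.47 was called once PDGFRA-MED proximal 3, the library at 11.9 RPKM, was left out (1.58, adjusted p = 7.15e-13). The glutamine carrier Slc38a5 (chrX:8271381-8280179) had 1.65 to 4.76 RPKM in epithelium, 0.15 to 0.592 in PDGFRA-HIGH and 0.784 to 5.89 in PDGFRA-MED cells, with 1.84 ± 0.134 (adjusted p = 3.88e-09) over PDGFRA-HIGH cells and 0.35, not called, over PDGFRA-MED cells. Slc1a4, a carrier of alanine, serine and cysteine, was lower in epithelium (-0.85, adjusted p = 0.000299 against PDGFRA-HIGH cells, short of the threshold in 1 or more regions in 10 of the fits that leave out 1 library, with means of -0.79 to -0.85; -1.31 against PDGFRA-MED cells).

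Of the remaining members, Slc6a9 had 0.391 to 1.91 RPKM in epithelium, 7.93 to 11.8 in PDGFRA-HIGH and 2.63 to 8.20 in PDGFRA-MED cells. Slc36a4 had 0.906 to 2.26 RPKM in epithelium, 10.5 to 13.2 in PDGFRA-HIGH and 8.29 to 11.5 in PDGFRA-MED cells. Both were called as lower in epithelium in each comparison, at -2.88 ± 0.112 and -1.49 for Slc6a9 and -2.71 and -2.44 for Slc36a4. The serotonin carrier Slc6a4 was an epithelial gene, at 6.95 to 11.3 RPKM in epithelium and at most 0.183 in mesenchyme (4.03 ± 0.0678 and 3.95). So were the proline carrier of neurons Slc6a7 (1.03 to 2.56 against at most 0.0714 RPKM) and the lysosomal glutamine exporter Slc38a7 (6.19 to 9.88 against 2.38 to 4.58 RPKM). The same held for the arginine and lysine carrier Slc7a1 (10.4 to 13.6 against 1.01 to 5.6 RPKM) and its relative Slc7a4 (3.71 to 4.90 against 0.146 to 0.546 RPKM). Slc6a4, Slc6a7 and Slc7a4 passed the filter on low values only through epithelium, so that their calls are not independent of it. Called as lower in epithelium than in PDGFRA-MED cells, and not against PDGFRA-HIGH cells, were Slc1a3 (-1.87), Slc1a6 (-2.03) and the cationic carrier Slc7a2 (-1.75), which gave -0.09, -0.49 and 0.76 against PDGFRA-HIGH cells. Slc1a6 passed the filter only through PDGFRA-MED libraries, so that its call is not independent of it either. Slc38a9 (-0.25) and Slc6a8 (0.27) were not called against PDGFRA-HIGH cells. Slc6a6 (chr6:91684048-91759063) gave -0.06 against PDGFRA-HIGH cells, where it was not called, and 2.15 ± 0.0467 against PDGFRA-MED cells, where it was.

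**Figure D2:**
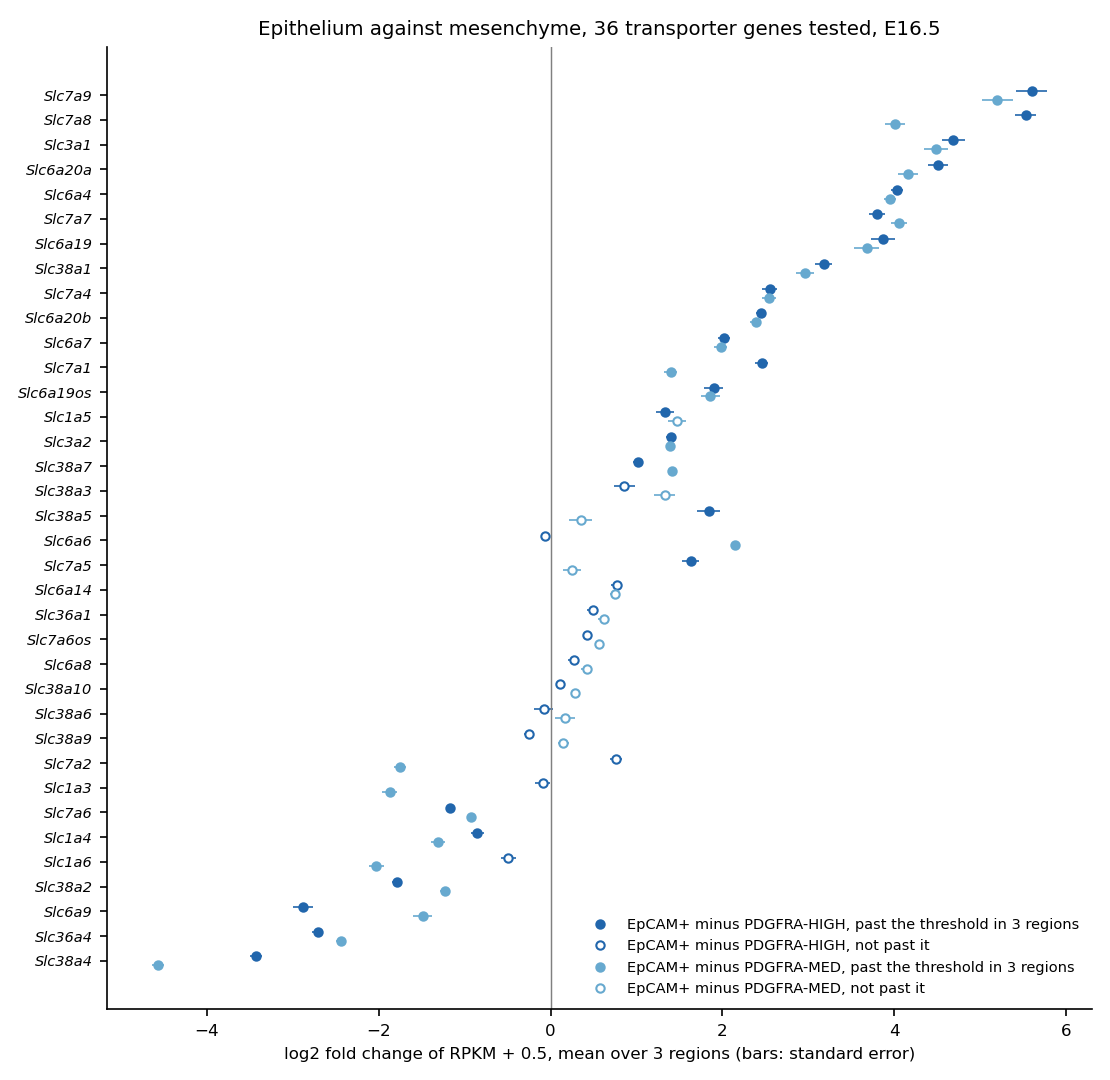
Log2 fold change of EpCAM+ epithelium over PDGFRA-HIGH and over PDGFRA-MED cells for the 36 tested members, as the mean over the 3 regions with its standard error; filled points passed the threshold in all 3 regions. Slc7a9 and Slc7a8 lie at the epithelial end of both comparisons and Slc38a4 at the mesenchymal end.

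Lists of other genes of amino acid handling were counted in the same way. Of all genes, 25.5% were higher and 23.6% lower in epithelium than in PDGFRA-HIGH cells, and 21.4% and 21.3% than in PDGFRA-MED cells. Of 8 brush border peptidases and their partners, 6 were higher and 0 lower in epithelium than in PDGFRA-HIGH cells (list median 3.21), led by Dpp4 (5.88), which releases dipeptides. Of the same list, 7 were higher than in PDGFRA-MED cells (list median 3.35). Of 8 other tested amino acid and peptide carriers, 4 were higher and 0 lower than in PDGFRA-HIGH cells, led by the peptide carrier Slc15a1 (3.49) and the large neutral amino acid carrier Slc43a2 (3.25). Against PDGFRA-MED cells, 5 were higher and 1 lower, Slc43a3 (-2.49, adjusted p = 1.31e-13). Of 20 cytosolic aminoacyl-tRNA synthetases, 15 were higher in epithelium than in PDGFRA-HIGH cells and 11 than in PDGFRA-MED cells, with 0 lower in either. Of 21 genes of the amino acid response driven by ATF4, 8 were higher and 3 lower than in PDGFRA-HIGH cells, and of 22 genes of amino acid sensing by mTORC1, 5 were higher and 2 lower, with list medians of 0.12 and -0.03 where all genes had 0.04.

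PDGFRA-HIGH and PDGFRA-MED cells, which differ in PDGFRa at the same medium CD29 level, were then set against each other. The largest differences concerned the cationic carrier Slc7a2 and the taurine carrier Slc6a6, in opposite directions. Of the 36 tested members, 2 were higher and 6 lower in PDGFRA-HIGH cells, against 7.79% and 8.04% of all genes, with a median log2 fold change of -0.03 for the members and -0.02 for all genes. Slc7a2 had 1.08, 0.739 and 0.648 RPKM in distal, 0.505, 0.419 and 0.337 in mid and 0.369, 0.18 and 0.152 in proximal PDGFRA-HIGH cells, against 5.0, 6.17 and 5.38 in distal, 5.02, 5.41 and 4.79 in mid and 4.23, 4.66 and 4.12 in proximal PDGFRA-MED cells. Slc6a6 had 20.2, 19.8 and 21.1 RPKM in distal, 34.2, 30.1 and 34.1 in mid and 40.5, 33.4 and 37.7 in proximal PDGFRA-HIGH cells, against 5.22 to 6.72 in the 9 PDGFRA-MED libraries (median 5.91). The sorts did not overlap for either gene, and the log2 fold changes were -2.51 ± 0.0666 (adjusted p = 1.16e-16) for Slc7a2 and 2.21 ± 0.0467 (adjusted p = 4.42e-18) for Slc6a6.

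The glutamate carriers Slc1a3 and Slc1a6, which clear glutamate from around neurons in the brain, were lower in PDGFRA-HIGH cells. Slc1a3 had 0.363 to 0.607 RPKM against 2.03 to 4.54 in PDGFRA-MED cells (-1.78 ± 0.0879, adjusted p = 2.48e-11). Slc1a6 had 0.0765 to 0.422 against 1.16 to 2.31 (-1.54 ± 0.0867). As given above, Slc1a6 passed the filter on low values only through PDGFRA-MED libraries. Markers of enteric neurons and glia summed to 2.05 to 6.99 RPKM in PDGFRA-HIGH and 11.1 to 135.2 in PDGFRA-MED cells; their part in these values was not tested. The light chains Slc7a8 (-1.52 ± 0.119, adjusted p = 1.61e-07) and Slc7a5 (-1.39 ± 0.102, adjusted p = 1.24e-07) were lower as well, and the call of Slc7a5 was lost without PDGFRA-MED distal 3 or PDGFRA-HIGH distal 3 (-1.35 each). Slc38a4 (-1.14 ± 0.0690, adjusted p = 4.64e-08) lost its call without PDGFRA-MED distal 2, PDGFRA-MED distal 3 or PDGFRA-HIGH distal 2 (-1.10 to -1.12). Slc6a9, at 7.93 to 11.8 RPKM in PDGFRA-HIGH cells, was higher by 1.39 ± 0.112 (adjusted p = 4.56e-07), a call lost without PDGFRA-MED proximal 1 or 2 or PDGFRA-HIGH proximal 2 (1.31 to 1.38). Its level in PDGFRA-MED proximal 3 was 8.20 RPKM, against 2.63 to 3.58 in the other PDGFRA-MED libraries. This gene is also used by erythroid cells, and blood markers were highest in the same region of this sort, as given above; their part in the value was not tested.

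CD29-HIGH cells, which carried smooth muscle markers, were compared with PDGFRA-MED cells in a table of their own. Of 25 tested members, 5 were higher and 5 lower in CD29-HIGH cells, against 9.52% and 7.09% of all genes; the median log2 fold change was -0.14 for the members and 0.01 for all genes. Slc38a1 had 18.7, 18.7 and 20.4 RPKM in distal, 22.8, 23.5 and 24.2 in mid and 23.1, 25.2 and 23.2 in proximal CD29-HIGH cells, against 2.78 to 5.81 in PDGFRA-MED cells (median 3.80). Slc6a17, a vesicular carrier of neutral amino acids known from neurons, had 3.15, 3.21 and 3.95 RPKM in distal, 5.66, 5.33 and 5.83 in mid and 6.36, 5.71 and 6.31 in proximal CD29-HIGH cells, against 0.542 to 0.998 in PDGFRA-MED cells (median 0.826). Both genes were separate in every library, with log2 fold changes of 2.29 ± 0.102 (adjusted p = 1.53e-09) and 2.07 ± 0.0607 (adjusted p = 3.25e-12). Slc6a17 passed the filter on low values only through CD29-HIGH libraries, so that its p-value is not independent of the filter. Enteric neuron and glia markers, for comparison with the neuronal gene Slc6a17, summed to 5.30 to 13.6 RPKM in CD29-HIGH cells and 10.6 to 133 in PDGFRA-MED cells of this table.

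The other members that were higher in CD29-HIGH cells were Slc6a6, Slc7a1 and Slc6a8. The values were 14.1 to 23.5 RPKM in CD29-HIGH cells against 5.0 to 6.50 in PDGFRA-MED cells for Slc6a6 (1.61 ± 0.0462, adjusted p = 8.22e-12). They were 9.67 to 12.6 against 3.43 to 5.42 RPKM for Slc7a1 (1.37 ± 0.0602, adjusted p = 3.71e-09), and 15.3 to 17.6 against 8.65 to 11.1 RPKM for Slc6a8 (0.77 ± 0.0346, adjusted p = 4.19e-06). Those that were lower were the glutamine carrier Slc38a5 (-1.98 ± 0.127), Slc1a3 (-1.49 ± 0.0963), Slc1a6 (-1.17 ± 0.115), Slc38a4 (-1.10 ± 0.0502) and Slc38a10 (-0.80 ± 0.0385). Slc38a5 stood at 0 to 0.248 RPKM in CD29-HIGH and 0.759 to 5.69 in PDGFRA-MED cells. In this table Slc38a5, Slc1a3 and Slc1a6 passed the filter on low values only through PDGFRA-MED libraries. Their p-values are not independent of the filter. The calls of Slc1a6 (adjusted p = 0.000106), Slc6a8 and Slc38a10 were lost in 6, 2 and 2 of the fits that leave out 1 library. For Slc6a8 this was without PDGFRA-MED mid 1 (0.76) or CD29-HIGH mid 2 (0.77), and for Slc38a10 without PDGFRA-MED proximal 2 or CD29-HIGH proximal 3 (-0.79 each). For Slc1a6 it was without any of 4 PDGFRA-MED and 2 CD29-HIGH libraries (-1.10 to -1.16). Slc6a6 was thus higher than in PDGFRA-MED cells in each of the other mesenchymal sorts, and Slc1a3, Slc1a6 and Slc38a4 were lower in each; both comparisons use the same PDGFRA-MED libraries.

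**Figure D3:**
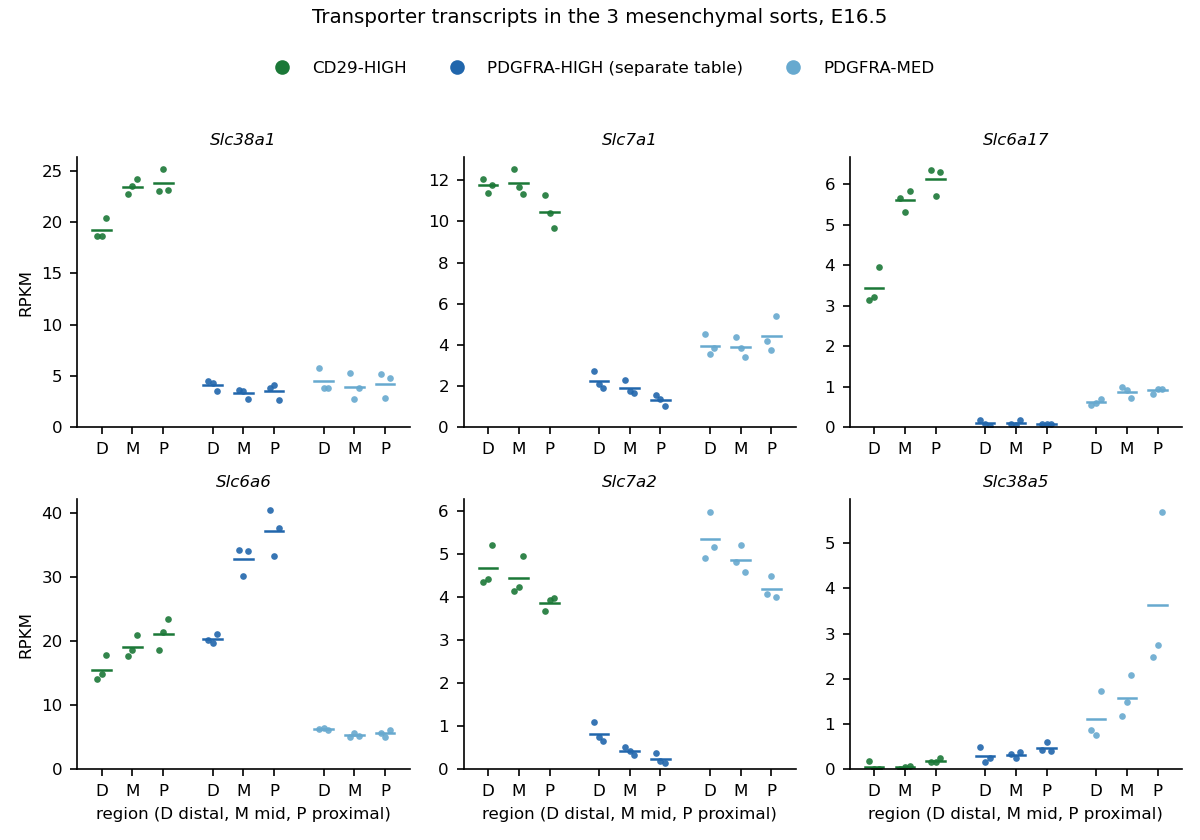
RPKM of 6 members in each library of CD29-HIGH, PDGFRA-HIGH and PDGFRA-MED cells at E16.5, by distal (D), mid (M) and proximal (P) gut; points are libraries and dashes means of 3. PDGFRA-MED and CD29-HIGH values come from 1 table and PDGFRA-HIGH values from another that was normalised apart; Slc6a6 is lowest in PDGFRA-MED cells, Slc7a2 lowest in PDGFRA-HIGH cells, and Slc38a1 and Slc6a17 highest in CD29-HIGH cells.

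Along the gut at E16.5, few members differed between regions of the epithelium. Of 36 tested members, 1 was higher and 4 were lower in distal than in proximal epithelium, against 5.89% of all genes in either direction; the median was -0.13 for the members and 0.01 for all genes. Slc6a14 (chrX:21714900-21742358) had 1.21, 1.60 and 1.86 RPKM in distal, 0.0452, 0.171 and 0.0465 in mid and 0, 0 and 0.0949 in proximal epithelium. The log2 fold change of distal over proximal was 1.94 ± 0.108 (adjusted p = 2.05e-09). Only the distal libraries took the gene past the filter on low values, so that this p-value is not independent of the filter. Slc6a19 had 2.40, 1.90 and 5.6 RPKM in distal, 11.0, 11.8 and 17.1 in mid and 10.3, 11.1 and 14.9 in proximal epithelium. Every distal library was below every mid and proximal one (-1.83 ± 0.250, adjusted p = 0.000455, over proximal; -1.96 ± 0.250, adjusted p = 0.000607, over mid). Its opposite-strand neighbour Slc6a19os (chr13:73699955-73709850) had 0.216, 0.263 and 1.21 RPKM in distal, 2.16, 2.39 and 3.01 in mid and 1.29, 2.10 and 2.2 in proximal epithelium (-1.25 ± 0.196, adjusted p = 0.0105 over proximal). That call was lost without EpCAM proximal 2 (adjusted p = 0.0880), EpCAM distal 1 (0.122) or EpCAM distal 2 (0.113).

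The other apical and basolateral carriers were present in every region. Slc3a1 (-0.57), Slc7a9 (-0.17), Slc7a7 (-0.75), Slc7a8 (-0.70), Slc3a2 (-0.54) and Slc6a20a (0.05) were not called between distal and proximal epithelium. Enterocyte markers summed to 373 to 875 RPKM in distal, 2634 to 3545 in mid and 3381 to 5144 in proximal epithelium. The other members that were lower in distal epithelium were Slc38a3 and Slc38a4. Of these, Slc38a3 passed the filter on low values only through its proximal libraries, so that its p-values are not independent of the filter. Slc38a3, a carrier of glutamine and histidine known from the liver, had 0.324, 0.517 and 0.833 RPKM in distal, 0.759, 0.448 and 0.683 in mid and 2.51, 5.01 and 2.81 in proximal epithelium (-1.87 ± 0.211, adjusted p = 4.59e-05, distal over proximal; -1.76 ± 0.211, adjusted p = 0.000345, mid over proximal). Slc38a4 had 0.913, 0.935 and 0.766 RPKM in distal, 0.473, 0.783 and 0.284 in mid and 2.55, 2.44 and 1.73 in proximal epithelium (-0.99 ± 0.120, adjusted p = 0.00645, and -1.45 ± 0.120, adjusted p = 1.05e-05). The call of distal over proximal was lost without EpCAM proximal 1 (adjusted p = 0.0691). Slc38a5 had 1.67, 1.76 and 1.65 RPKM in distal, 1.92, 2.58 and 2.38 in mid and 4.49, 4.76 and 3.35 in proximal epithelium, and was not called (-1.09, adjusted p = 0.141). For each of these genes all 3 proximal libraries stood above the rest. The 8 acinar markers moved with them, at 1984 to 4076 RPKM in proximal, 1.43 to 336 in mid and 1.26 to 4.90 in distal epithelium, and their part in these values was not tested.

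Between neighbouring regions, 0 members were higher and 3 lower in mid than in proximal epithelium, against 2.35% of all genes, and 1 was higher and 2 lower in distal than in mid epithelium, against 2.06%. The member medians were 0.12 and -0.16, beside 0.01 and 0 for all genes. The third gene of the mid and proximal comparison was the glutamate carrier Slc1a3 (-1.04 ± 0.152, adjusted p = 0.0409), whose call was lost in each of the 6 fits that leave out 1 of the libraries compared (adjusted p = 0.0789 to 0.167). The distal and mid comparison held Slc6a14 (1.80 ± 0.108, adjusted p = 5.30e-08), Slc6a19 and Slc6a19os (-1.62 ± 0.196, adjusted p = 0.000766). As given above, Slc6a14 passed the filter on low values only through its distal libraries.

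The same regions were compared in each mesenchymal sort. In PDGFRA-HIGH cells 1 of 36 tested members, Slc6a6, was called between distal and proximal gut, against 2.46% of all genes (member median -0.04, all genes -0.02). Its 3 distal libraries, given above at 19.8 to 21.1 RPKM, lay below its mid (30.1 to 34.2) and proximal (33.4 to 40.5) libraries. The log2 fold change of -0.85 ± 0.0808 (adjusted p = 0.00863) missed the threshold without PDGFRA-HIGH proximal 1 (-0.76, adjusted p = 0.0844). Slc7a2, whose distal libraries (0.648 to 1.08 RPKM) lay above its proximal ones (0.152 to 0.369), was not called (0.85, adjusted p = 0.111). It was called by limma-voom (1.87, adjusted p = 0.00139), with a pseudocount of 0.1 (1.5, adjusted p = 0.000912) and without PDGFRA-HIGH proximal 1 (0.96, adjusted p = 0.0277). In PDGFRA-MED cells 0 of 36 were called, against 0.869% of all genes (medians -0.10 and -0.02); 2 members, Slc38a5 and Slc7a7, had an unadjusted p under 0.05 in limma, and limma-voom on recovered reads called 0. In CD29-HIGH cells 0 of 25 were called, against 2.26% of all genes (medians 0.07 and 0.01); 1 member, Slc6a17 (-0.76, adjusted p = 0.364), had an unadjusted p under 0.05, and limma-voom called 1.

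The distal over proximal change in epithelium minus that in PDGFRA-HIGH cells was tested directly, without a minimum size. This test is signed and does not ask in which sort the change was larger. It passed for 3 members with a more positive and 10 with a more negative value in epithelium, against 12% and 14.1% of all genes (member median -0.21, all genes 0.02). The most positive was Slc6a14 (1.92 ± 0.153, adjusted p = 9.67e-09), followed by Slc6a6 (0.70 ± 0.114, adjusted p = 9.22e-05). For Slc6a6 the called regional change was the lower distal level in PDGFRA-HIGH cells given above, and it was not called in epithelium. Slc6a14 passed the filter on low values only through distal epithelium, and Slc38a3 only through proximal epithelium. The most negative were Slc38a3 (-1.94 ± 0.298, adjusted p = 4.72e-05), Slc6a19 (-1.63 ± 0.353, adjusted p = 0.00159) and Slc38a4 (-1.34 ± 0.169, adjusted p = 4.66e-06). For Slc6a19, at most 0.368 RPKM in PDGFRA-HIGH cells, limma-voom gave -0.27 (adjusted p = 0.925).

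At E13.5, before villi form, Slc38a1 and Slc38a2 led the epithelium and the apical exchanger was low; E13.5 and E16.5 values come from tables normalised apart and from guts cut differently, and were set side by side without a test. Slc3a1 had 1.26, 0.991 and 0.673 RPKM in distal and 0.736, 1.45 and 0.694 in proximal E13.5 epithelium, where E16.5 epithelium had 14.7 to 36. Slc7a9 had 1.55, 1.61 and 1.02 RPKM in distal and 1.53, 2.31 and 2.48 in proximal E13.5 epithelium, where E16.5 epithelium had 24.8 to 38.8. Slc7a8 was present already, at 12.54, 14.1 and 14.8 RPKM in distal and 7.89, 11.3 and 9.16 in proximal epithelium, and Slc3a2 at 22.7 to 27.6. Slc38a4 had 8.46, 6.67 and 7.03 RPKM in distal and 18.9, 12.2 and 8.58 in proximal E13.5 epithelium, where E16.5 epithelium had 0.284 to 2.55. Summed mesenchymal markers were 211 to 368 RPKM in distal and 33.7 to 66.2 in proximal E13.5 epithelium, against 30.8 to 95.6 at E16.5. Slc7a6 had 9.09 to 12.4 RPKM at E13.5 and 3.80 to 4.81 at E16.5. Enterocyte markers summed to 65.7 to 112 RPKM in distal and 150 to 156 in proximal E13.5 epithelium.

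Between the regions of the E13.5 gut, 1 of 27 tested members was higher and 2 were lower in distal epithelium, against 2.16% of all genes (member median -0.13, all genes -0.01). Slc6a20a had 2.13, 2.17 and 2.53 RPKM in distal and 0.469, 0.349 and 0.163 in proximal epithelium (1.76 ± 0.218, adjusted p = 0.0172). Slc1a3 had 0.575, 0.402 and 0.273 RPKM in distal and 2.89, 2.57 and 2.90 in proximal epithelium (-1.85 ± 0.190, adjusted p = 0.00779). Slc7a7 had 3.89, 4.37 and 3.50 RPKM in distal and 8.43, 10.1 and 10.6 in proximal epithelium (-1.21 ± 0.119, adjusted p = 0.0158). Slc6a20a passed the filter on low values only through its distal libraries and Slc1a3 only through its proximal ones. The p-values of these genes are not independent of the filter. Each of the 3 called members missed the threshold in some fits with 1 library left out. This was at adjusted p = 0.0602 to 0.105 for Slc6a20a and 0.0580 to 0.0846 for Slc7a7 (without E13.5 proximal 1, proximal 2, distal 1 or distal 2). For Slc1a3 it was at 0.0521 (without proximal 1) and 0.0582 (without proximal 2). Slc38a5 had 0, 0.0246 and 0 RPKM in distal and 31.4, 6.60 and 2.62 in proximal epithelium. The proximal libraries differed widely among themselves, and the gene was not called (-4.13 ± 0.843, adjusted p = 0.446), but was without proximal 1 (-3.2, adjusted p = 0.0241) or without distal 1 (-3.2, adjusted p = 0.0241). It was also called by limma-voom (-8.71, adjusted p = 0.00734) and with a pseudocount of 0.1 (-6.27, adjusted p = 0.0294). Slc38a5 too passed the filter on low values only through its proximal libraries, so that these p-values are not independent of it. With distal libraries at or near 0, the size of the change depends on the pseudocount. Acinar markers summed to 2.16 to 3.2 RPKM in distal and 8.09 to 86.6 in proximal E13.5 epithelium, and enteroendocrine markers to 0.403 to 1.21 and 20.1 to 275; their part in these values was not tested.

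The LGK974 experiment asks what Wnt secretion contributes to epithelial genes in each region. Of the 8 tested apical members, 4 were higher after LGK974 in the distal gut, 1 in the mid gut and 0 in the proximal gut. In distal epithelium, LGK974 libraries against the 3 untreated and 1 vehicle library gave 13 higher and 5 lower members of 35 tested, against 7.37% and 6.9% of all genes, with a median log2 fold change of 0.69 for the members and 0.04 for all genes. In mid epithelium 5 were higher and 2 lower, against 2.81% and 4.5%, with medians of 0.20 and 0. In proximal epithelium 0 were called, against 2.18% of all genes in either direction, with medians of 0.06 and -0.01; 5 members had an unadjusted p under 0.05 in limma (Slc1a5, Slc38a3, Slc6a6, Slc6a9 and Slc7a9), and limma-voom called 0. Against the 3 vehicle libraries alone, within the strain and averaged over regions, 10 were higher and 2 lower, where 4.68% and 4.77% of all genes were, with medians of 0.44 and 0.01. The 3 vehicle libraries are 1 per region under a single replicate number, and nothing in the labels says that they came from separate embryos or dams. A vehicle group of 1 library also gives no spread of its own. The standard errors and p-values against vehicle therefore rest on the spread within the LGK974 and untreated groups, which may be technical. They assume that vehicle libraries vary like these groups.

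Both chains of the apical exchanger were higher. Slc3a1 had 68.3, 74.7 and 69.9 RPKM in LGK974 distal libraries, against 6.49 in vehicle and 14.0, 14.3 and 27.4 in untreated distal epithelium. In the mid gut it had 64.2, 56.7 and 49.2 RPKM after LGK974, against 18.3 with vehicle and 27.1, 26.6 and 34.9 untreated. In the proximal gut it had 46.8, 38.9 and 52.6 RPKM after LGK974, against 24.4 with vehicle and 22.5, 25.7 and 32.8 untreated. The LGK974 libraries were above all controls in every region, by log2 fold changes of 2.32 ± 0.306 in distal (adjusted p = 0.000150), 1.10 in mid (adjusted p = 0.295) and 0.80 in proximal epithelium, of which only the distal one was called. Slc7a9 had 79.4, 93.6 and 96.8 RPKM after LGK974 in the distal gut, against 14.9 with vehicle and 23.7, 25.6 and 36.7 untreated. It had 82.3, 79.4 and 77.6 RPKM after LGK974 in the mid gut, against 30.0 with vehicle and 32.2, 36.1 and 37.7 untreated, and 61.1, 52.7 and 67.4 in the proximal gut, against 36.7 with vehicle and 27.8, 33.4 and 34.6 untreated. Again no LGK974 library overlapped a control, with 1.88 ± 0.189 (adjusted p = 1.28e-05) in distal, 1.22 ± 0.189 (adjusted p = 0.0109) in mid and 0.86, not called, in proximal epithelium. Against vehicle alone, which rests on those 3 libraries, the changes were 1.95 ± 0.173 (adjusted p = 1.42e-05) for Slc3a1 and 1.55 ± 0.112 (adjusted p = 2.60e-06) for Slc7a9.

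Slc6a19 had 15.7, 19.2 and 19.1 RPKM after LGK974 in the distal gut, against 0.775 with vehicle and 2.30, 1.82 and 5.39 untreated (2.80 ± 0.355, adjusted p = 6.43e-05). All 3 treated distal libraries lay above the untreated proximal ones (9.95 to 14.4), and all but LGK974 distal 1 above the untreated mid ones (10.5 to 16.6). In the mid gut it had 33.2, 29.9 and 28.6 RPKM after LGK974, against 6.57 with vehicle and 10.5, 11.3 and 16.6 untreated, which was not called (1.47, adjusted p = 0.0844) but was with the replicate number as a block (1.39, adjusted p = 0.0499). Against vehicle alone it was higher by 2.31 ± 0.216 (adjusted p = 1.76e-05). The opposite-strand Slc6a19os followed, at 2.58, 3.72 and 2.52 RPKM after LGK974 in the distal gut, against 0 with vehicle and 0.207, 0.252 and 1.16 untreated (2.06 ± 0.299, adjusted p = 0.000429). Slc6a14 had 4.42, 3.39 and 3.58 RPKM in LGK974 distal libraries, against 0.671 with vehicle and 1.16, 1.53 and 1.79 untreated (1.30 ± 0.175, adjusted p = 0.00136), and stayed at or below 0.0374 RPKM in LGK974 mid libraries. Slc6a20a was not called in distal epithelium (0.87, adjusted p = 0.126), but was with the replicate block (0.84, adjusted p = 0.0184).

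Basolateral carriers were also higher in the distal gut. Slc7a7 had 28.8, 33.9 and 27.5 RPKM after LGK974, against 5.71 with vehicle and 12.1, 13.4 and 19.7 untreated (1.32 ± 0.259, adjusted p = 0.0208). This call was lost without LGK974 distal 2 (adjusted p = 0.0889), and against vehicle alone the gene was higher by 1.43 ± 0.118 (adjusted p = 1.54e-05). Slc7a8 had 45.4, 50.6 and 44.8 RPKM after LGK974, against 14.9 with vehicle and 19.2, 20.3 and 28.8 untreated (1.19 ± 0.143, adjusted p = 0.000823). Slc3a2 had 57.7, 72.2 and 59.5 RPKM after LGK974, against 29.5 with vehicle and 28.4, 29.3 and 34.0 untreated (1.04 ± 0.0966, adjusted p = 0.000194). No treated library overlapped a control for these genes in the distal gut, whereas in the proximal gut Slc7a8 had 35.2, 32.8 and 38 RPKM after LGK974, against 39.1 with vehicle and 35.5, 35.9 and 39.6 untreated.

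Lysosomal carriers were higher as well. Slc38a9 (chr13:112656189-112738752) had 3.33, 3.23 and 4.38 RPKM after LGK974 in the distal gut, against 0.862 with vehicle and 0.771, 0.743 and 0.989 untreated (1.62 ± 0.127, adjusted p = 1.27e-06). It had 0.774, 0.830 and 0.890 RPKM after LGK974 in the proximal gut, against 0.677 with vehicle and 0.691, 0.826 and 0.864 untreated, where the groups overlapped. Without its LGK974 libraries, Slc38a9 would not have passed the filter on low values, so that its p-values are not independent of the filter. The lysosomal exporter Slc38a7 (1.05), Slc38a6, a member without a settled role (2.05 ± 0.194, adjusted p = 3.90e-06), the creatine carrier Slc6a8 (1.05) and Slc38a3 (1.99 ± 0.446, adjusted p = 0.0149) were the other members that were higher in distal epithelium. Slc38a3 had 2.79, 3.50 and 3.65 RPKM after LGK974 there, against 0.282 with vehicle and 0.310, 0.497 and 0.801 untreated; it missed the threshold without LGK974 distal 3 (1.93, adjusted p = 0.0574). In the mid gut, beside Slc7a9, the higher members were Slc38a6 (1.23, adjusted p = 0.0116), Slc6a8 (0.96, adjusted p = 0.0208), Slc3a2 (0.80, adjusted p = 0.0384) and Slc6a6 (0.77, adjusted p = 0.0487). Each of these 4 lost its call in some fits with 1 library left out. This was so for Slc38a6 without LGK974 mid 1 (1.13, adjusted p = 0.0804), and for Slc6a8 without LGK974 mid 1 (0.85, adjusted p = 0.163), the vehicle library (0.92, adjusted p = 0.0655) or untreated mid 1 (0.94, adjusted p = 0.0575). Slc3a2 (0.74 to 0.82, adjusted p = 0.0574 to 0.224) and Slc6a6 (0.74 to 0.80, adjusted p = 0.0683 to 0.173) lost it without any of 6 libraries each, LGK974 mid 1, vehicle and untreated mid 1 among them.

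**Figure D4:**
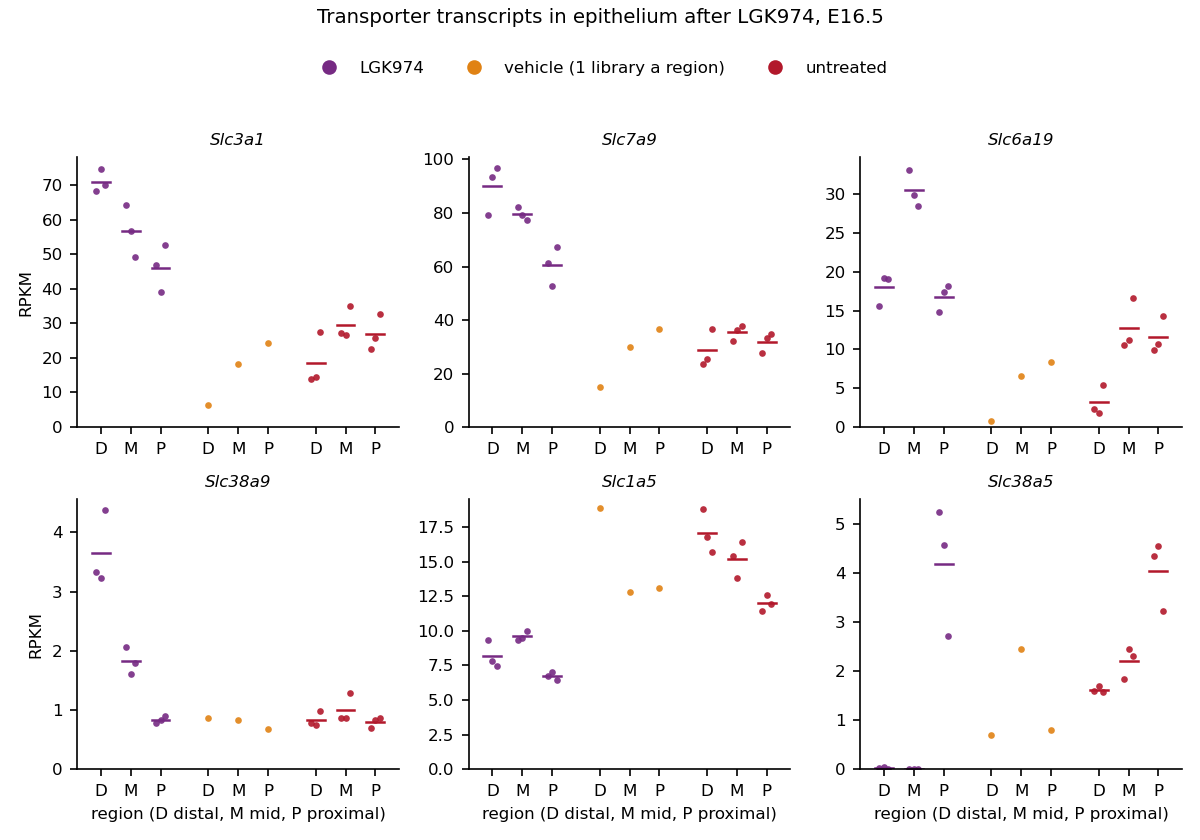
RPKM of 6 members in each EpCAM+ library of LGK974-treated, vehicle-treated and untreated E16.5 embryos, by distal, mid and proximal gut; points are libraries. Slc3a1, Slc7a9, Slc6a19 and Slc38a9 are above all controls in LGK974 distal libraries, Slc1a5 is below them, and Slc38a5 is at or near 0 in LGK974 distal and mid libraries.

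Fewer members were lower. The glutamine carrier Slc1a5 had 9.35, 7.82 and 7.46 RPKM after LGK974 in the distal gut, against 18.9 with vehicle and 18.8, 16.8 and 15.7 untreated (-1.05 ± 0.0918, adjusted p = 9.45e-05). In the mid gut it had 9.34, 9.48 and 9.999 RPKM, against 12.8 with vehicle and 15.4, 13.8 and 16.5 untreated. In the proximal gut it had 6.74, 6.99 and 6.47 RPKM, against 13.1 with vehicle and 11.4, 12.6 and 11.9 untreated, which was not called (-0.82, adjusted p = 0.0556). The treated libraries were below all controls in each region, and against vehicle alone the log2 fold change was -0.82 ± 0.0722 (adjusted p = 0.00314). Slc38a5 had 0.0285, 0.0508 and 0 RPKM after LGK974 in the distal gut, against 0.7 with vehicle and 1.59, 1.69 and 1.58 untreated (-1.81 ± 0.339, adjusted p = 0.00564). Mid gut libraries had no read of it in any of the 3 LGK974 samples, against 2.46 RPKM with vehicle and 1.84, 2.46 and 2.31 untreated. A count of 3 reads over the group would be 0.0273 RPKM, so that it was at least 83.2-fold lower than the control mean of 2.27 RPKM. In the proximal gut it had 5.25, 4.58 and 2.73 RPKM after LGK974, against 0.8 with vehicle and 4.35, 4.57 and 3.24 untreated, with the treated libraries on both sides of the untreated ones and above the vehicle library. Its relative Slc38a11, too low to be tested, was at 0 in all LGK974 distal and mid libraries, at least 16.9-fold and 14.3-fold below control means of 0.538 and 0.450 RPKM.

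Slc6a7 had 0.506, 0.395 and 0.435 RPKM after LGK974 in the distal gut, against 2.07 with vehicle and 1.80, 1.60 and 1.35 untreated (-1.22 ± 0.144, adjusted p = 0.000662). It was lower in the mid gut as well (-1.38 ± 0.144, adjusted p = 0.000146) and against vehicle alone (-1.10). Slc7a2 (-0.92, adjusted p = 0.00768) and Slc7a6 (-0.78, adjusted p = 0.0491) were the other lower members of the distal gut. Slc6a7 and Slc7a2 passed the filter on low values only through untreated and vehicle libraries, so that their p-values are not independent of it. The call of Slc7a2 was lost with a pseudocount of 1 (-0.68, adjusted p = 0.168) and after quantile scaling (-0.53). Against the lone distal vehicle library the changes were -0.95 for Slc7a2 and -0.55 for Slc7a6. The call of Slc7a6 was lost without any of the 3 untreated libraries, LGK974 distal 2 or LGK974 distal 3 (-0.67 to -0.77, adjusted p = 0.0896 to 0.356), and with the replicate block (-0.79, adjusted p = 0.0594). Enteroendocrine markers summed to 6.22 to 21.7 RPKM in LGK974 distal, 0.385 to 5.83 in LGK974 mid (Nts and Tph1 at 0) and 454 to 629 in LGK974 proximal libraries. They summed to 503 distal, 717 mid and 713 RPKM proximal with vehicle and 584 to 1304 over the untreated regions. Enterocyte markers summed to 2376 to 3599 RPKM in LGK974 distal, 9944 to 11840 in LGK974 mid and 6090 to 7976 in LGK974 proximal libraries. They summed to 152, 2212 and 4100 RPKM with vehicle and to 357 to 841, 2520 to 3443 and 3273 to 4964 untreated, so that they were higher after LGK974 in every region. The part of these cell types in the members' values was not tested. For Slc38a5 in the proximal gut, the vehicle library had 1.02 RPKM of acinar markers and 0.8 of Slc38a5, while LGK974 libraries had 5.12 to 10.7 of acinar markers and 2.73 to 5.25 of Slc38a5. Untreated proximal libraries had 1920 to 3913 RPKM of acinar markers and 3.24 to 4.57 of Slc38a5. A link between these values was not tested.

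That the response differed along the gut was tested as the distal minus the proximal LGK974 change. It passed for 16 members in the direction of a higher and 5 of a lower value in the distal gut, against 12.8% and 9.96% of all genes, with a median of 0.31 for the members and 0.04 for all genes. By role, 7 of 8 tested apical members were more positive in the distal gut, among them Slc6a19 (2.17 ± 0.502, adjusted p = 0.00419), Slc3a1 (1.52 ± 0.433, adjusted p = 0.0162), Slc6a20a (1.38 ± 0.240, adjusted p = 0.000319) and Slc7a9 (1.02 ± 0.268, adjusted p = 0.00899). The largest difference was that of Slc38a3 (3.42 ± 0.630, adjusted p = 0.000592), which combines its distal gain with 0.524, 0.143 and 0.554 RPKM in LGK974 proximal libraries, against 0.149 with vehicle and 2.42, 4.81 and 2.71 untreated. The treated proximal values of Slc38a3 lay below the untreated libraries, 1 of them just below and 2 above the vehicle library; acinar markers summed to 1920 to 3913 RPKM in the untreated libraries and to 1.02 in the vehicle library, and their part was not tested. Slc38a9 (1.54 ± 0.18, adjusted p = 5.43e-06), Slc7a8 (1.28 ± 0.202, adjusted p = 0.000134) and Slc3a2 (0.96 ± 0.137, adjusted p = 4.32e-05) were also more positive in the distal gut. As given above, the p-value of Slc38a9 is not independent of the filter on low values. Slc38a5 (-2.27 ± 0.480, adjusted p = 0.00185) and Slc6a9 (-0.76 ± 0.214, adjusted p = 0.0137) were more negative there.

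**Figure D5:**
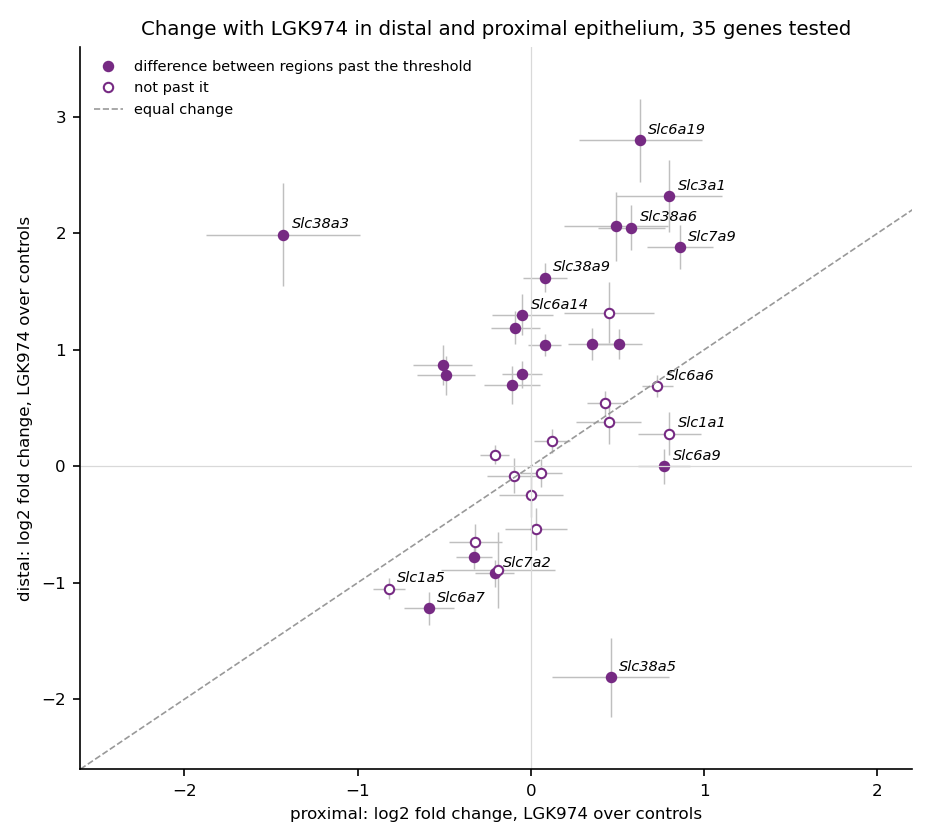
Log2 fold change of LGK974 over control (untreated and vehicle) in distal epithelium (vertical axis) and proximal epithelium (horizontal axis) for the 35 tested members, with standard errors; filled points are the 21 whose 2 changes differ by the test of the difference. Most apical members lie toward higher distal than proximal change, and Slc38a3 and Slc38a5 lie farthest from the dashed line of equal change, on opposite sides.

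Among the other genes of amino acid handling, 4 of 8 brush border peptidases and partners were higher and 0 lower in LGK974 distal epithelium (list median 0.93), with Ggt1 at 2.97. Of the same list 3 were higher in the mid gut, with Mme at 3.58, and in the proximal gut 0. Of 9 other amino acid and peptide carriers, 5 were higher and 1 lower in the distal gut, led by Slc43a2 (2.58) and the lysosomal exporter Slc66a1 (1.42). None of the 20 cytosolic aminoacyl-tRNA synthetases was called in any region. In the test of the distal minus the proximal change, made without a minimum size, 8 of them were higher and 0 lower. Of all genes, 12.8% and 9.96% were, and the list median was 0.16 where all genes had 0.04. Of 23 genes of amino acid sensing by mTORC1, 5 were higher and 1 lower in the distal gut, with the arginine sensor Castor1 at 1.57 and the GTPase Rragd at 1.47. Of 22 genes of the ATF4 response, 2 were higher and 1 lower there, with Ddit3 at 2.56. Of all genes, 7.37% were higher and 6.9% lower in the distal gut.

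The 12 members of the E16.5 epithelium and PDGFRA table that were too low to test reached at most 2.12 RPKM in any of its 27 libraries. Among them the glutamate carrier of the brush border Slc1a1 had 0.894, 1.10 and 1.45 RPKM in distal, 0.279, 0.382 and 0.316 in mid and 0.464, 0.442 and 0.549 in proximal epithelium, so that the distal libraries were the highest. The neuronal neutral amino acid carrier Slc6a15 reached 2.12 RPKM and Slc7a10, a carrier of small neutral amino acids and D-serine, 1.32 RPKM in their highest libraries. The cystine carrier Slc7a11, the arginine and lysine carrier Slc7a3 and the neuronal glutamate carrier Slc1a2 stayed at or below 0.201, 0.516 and 0.333 RPKM, and Slc6a3, Slc6a11, Slc6a13, Slc7a14, Slc38a11 and Slc6a17 at or below 1.04 RPKM.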

How the data were processed

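RNA of FACS-sorted cells was sequenced by the authors with a stranded total RNA kit for small inputs (SMARTer), mapped to mm10 with Rsubread and counted by strand over RefSeq gene models; a read that mapped to several places was kept where only one of them lay in an annotated gene. The deposited RPKM values (reads per kilobase, scaled to library size by edgeR) were taken as given, after the authors' filter on low genes; the deposited Length column is the gene model length in bases, and 155 to 199 genes of 3 tables had none there. The 4 tables were normalised separately, so tests were made within a table only.

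Members and gene lists were chosen with earlier results of these data known. Genes with at least 1 RPKM in 3 or more libraries of a table were tested (12473 to 14732 genes). Tests were run in limma 3.58.1 (R 4.3.3) on log2(RPKM + 0.5), which understates the change of low genes, against a smallest change of 0.5 (limma's treat) at Benjamini-Hochberg adjusted p under 0.05 over all genes tested; comparisons of 2 changes were made without a minimum. RPKM values were whole multiples of 1 read (100% within 0.01 reads), and limma-voom on the recovered reads was an alternative, which called 26 members between EpCAM+ and PDGFRA-HIGH cells, for example. The replicate number was a block in all but the LGK974 table, because the study's methods name the mother under that number; deviations of same-numbered libraries correlated with a mean of 0.137, 0.239 and 0.200 in the tables fitted with the block. P-values measure the spread between libraries. The script was tested on simulated data. Alternatives were the pseudocount (0.1 or 1), no filter, quantile scaling, the block, the groups compared alone, controls of one kind, and leaving out each library in turn; comparisons with the mid gut of the epithelium were added after seeing the data.

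The genes named in each comparison were the members past the threshold (up to 10 by size) and a list of members by role, with up to 2 of the largest changes of each pathway list (1 gene of these lists is not reported here); Slc38a11, Slc6a15 and Slc7a10 were named after their values were seen, and so were the other members too low to test.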

Additional observations from a re-analysis of the deposited data

Results flagged for a closer look

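Among the 4 control libraries of each region in the LGK974 table, 1 library stood apart from the other 3 by Dixon's criterion in 7 of 105 gene and region groups, where chance gives about 1 in 20. Slc38a5 had 0.7 RPKM in the distal vehicle library against 1.58 to 1.69 in the untreated ones. In the mid gut, Slc38a9 had 1.29 RPKM in untreated 3 against 0.831 to 0.872 in the others, Slc6a20a had 16.5 in untreated 3 against 9.62 to 10.6, Slc6a14 had 0.163 in untreated 2 against 0.0432 to 0.0485, and Slc6a9 had 0.756 in untreated 1 against 1.004 to 1.026. In the proximal vehicle library Slc7a4 had 3.79 RPKM against 4.61 to 4.73 in the untreated libraries, and Slc7a6os had 20.96 against 16.6 to 17.3.

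The LGK974 change differed between distal and proximal epithelium, by limma's test of the difference, for 21 of 35 members. The difference (distal minus proximal, log2) was positive for Slc38a3 (3.42 ± 0.63, adjusted p = 0.000592), Slc6a19 (2.17 ± 0.502, adjusted p = 0.00419), Slc6a19os (1.57 ± 0.424, adjusted p = 0.0109), Slc38a9 (1.54 ± 0.18, adjusted p = 5.43e-06), Slc3a1 (1.52 ± 0.433, adjusted p = 0.0162), Slc38a6 (1.47 ± 0.274, adjusted p = 0.000588), Slc6a20a (1.38 ± 0.24, adjusted p = 0.000319), Slc6a14 (1.35 ± 0.247, adjusted p = 0.000519), Slc7a8 (1.28 ± 0.202, adjusted p = 0.000134), Slc6a20b (1.26 ± 0.238, adjusted p = 0.000649), Slc7a9 (1.02 ± 0.268, adjusted p = 0.00899), Slc3a2 (0.96 ± 0.137, adjusted p = 4.32e-05), Slc6a4 (0.85 ± 0.165, adjusted p = 0.000901), Slc36a1 (0.82 ± 0.231, adjusted p = 0.0141), Slc38a7 (0.70 ± 0.193, adjusted p = 0.0119) and Slc6a8 (0.54 ± 0.187, adjusted p = 0.0423). It was negative for Slc38a5 (-2.27 ± 0.48, adjusted p = 0.00185), Slc6a9 (-0.76 ± 0.214, adjusted p = 0.0137), Slc7a2 (-0.71 ± 0.163, adjusted p = 0.00338), Slc6a7 (-0.63 ± 0.204, adjusted p = 0.0318) and Slc7a6 (-0.46 ± 0.149, adjusted p = 0.0316). Of these, limma-voom did not call Slc6a14 (1.51, adjusted p = 0.444) or Slc6a9 (-0.97, adjusted p = 0.0579). Slc6a8 (0.43 to 0.57, adjusted p = 0.0587 to 0.102) and Slc7a6 (-0.35 to -0.46, adjusted p = 0.0511 to 0.106) missed the threshold in many of the fits with 1 library left out. The untreated proximal libraries that enter these values carried the acinar markers described above. Slc38a9 would not have passed the filter on low values without its LGK974 libraries. Slc6a7 and Slc7a2 passed it only through control libraries, so that the p-values of these genes are not independent of the filter.

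The regional change (distal over proximal) differed between EpCAM+ and PDGFRA-HIGH cells for 13 of 36 members. Of these, Slc6a14 passed the filter on low values only through distal epithelium and Slc38a3 only through proximal epithelium. The difference (EpCAM+ minus PDGFRA-HIGH, log2) was positive for Slc6a14 (1.92 ± 0.153, adjusted p = 9.67e-09), Slc6a6 (0.70 ± 0.114, adjusted p = 9.22e-05) and Slc38a9 (0.43 ± 0.15, adjusted p = 0.0379). It was negative for Slc38a3 (-1.94 ± 0.298, adjusted p = 4.72e-05), Slc6a19 (-1.63 ± 0.353, adjusted p = 0.00159), Slc38a4 (-1.34 ± 0.169, adjusted p = 4.66e-06), Slc6a19os (-1.22 ± 0.277, adjusted p = 0.00232), Slc1a3 (-0.84 ± 0.215, adjusted p = 0.00609), Slc6a9 (-0.79 ± 0.275, adjusted p = 0.0383), Slc7a5 (-0.74 ± 0.249, adjusted p = 0.0328), Slc7a1 (-0.72 ± 0.185, adjusted p = 0.00585), Slc3a2 (-0.66 ± 0.124, adjusted p = 0.000393) and Slc7a2 (-0.57 ± 0.163, adjusted p = 0.0131). Slc6a19 and Slc6a19os are near 0 RPKM in PDGFRA-HIGH cells; limma-voom gave -0.27 (adjusted p = 0.925) for Slc6a19 and -1.49 (adjusted p = 0.338) for Slc6a19os, and a pseudocount of 0.1 gave -1.45 (adjusted p = 0.139) for Slc6a19. Slc6a9 (-1.35, adjusted p = 0.062) and Slc7a5 (-0.84, adjusted p = 0.059) were not called by limma-voom. Without the replicate block Slc38a9 (adjusted p = 0.0722), Slc6a9 (0.0628) and Slc7a5 (0.0787) lost their calls. They also lost them in many of the fits with 1 library left out, at adjusted p = 0.0523 to 0.0941, 0.0508 to 0.114 and 0.0555 to 0.106.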

How the results depend on the processing

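No call of a named gene turned round: over 400 pairs of gene and comparison and 6994 values under alternatives, 193 lost a call (124 of them with 1 library left out), 71 gained one and 0 changed direction while called; 131 values that were not called changed sign. Counts that moved by over 1.5 times were as follows. With a pseudocount of 1, 3 members in place of 5 were called between distal and proximal E16.5 epithelium. Between distal and proximal PDGFRA-HIGH cells, 2 in place of 1 were called with a pseudocount of 0.1 and by limma-voom on recovered reads; in PDGFRA-MED cells 1 in place of 0 with a pseudocount of 0.1 or with only the groups compared in the fit; and in CD29-HIGH cells 1 in place of 0 by limma-voom. For LGK974 in the mid gut, 4 were called after quantile scaling and 11 by limma-voom, in place of 7. In the proximal gut, 1 was called with a pseudocount of 0.1, 1 with untreated controls only, 1 with vehicle only and 2 after quantile scaling, in place of 0; a fit against the lone vehicle library assumes that it varies like the other groups. The causes of these shifts were not tested.

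With 1 library left out, the counts ranged from 0 to 2 for PDGFRA-MED distal over proximal (2 without PDGFRA-MED proximal 2, 1 without distal 3), from 0 to 3 for E13.5 (0 without proximal 2, 1 without proximal 1 or distal 2), from 3 to 8 for LGK974 in the mid gut (3 without LGK974 mid 1, 4 without untreated mid 1 or the vehicle library) and from 0 to 1 in the proximal gut (1 without the vehicle library). They ranged from 21 to 24 for EpCAM+ over PDGFRA-HIGH cells, from 24 to 26 over PDGFRA-MED cells and from 16 to 19 for LGK974 in the distal gut. The comparison with vehicle could not be made with a vehicle library left out, and some fits with only the groups compared could not be made for E13.5 and CD29-HIGH cells.

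Without the replicate block, the count of calls was 24 for EpCAM+ over PDGFRA-HIGH, 25 over PDGFRA-MED, 7 for PDGFRA-HIGH over PDGFRA-MED, 10 for CD29-HIGH, 5 for distal over proximal epithelium, 1, 0 and 0 in the mesenchymal sorts and 3 at E13.5. With the block in the LGK974 table, where same-numbered libraries correlated with a mean of 0.212 (untreated) and 0.0579 (LGK974), it was 19 in distal, 8 in mid, 0 in proximal epithelium and 9 against vehicle, where Slc38a3 (1.07, adjusted p = 0.109), Slc38a7 (0.84, adjusted p = 0.0571) and Slc38a9 (0.80, adjusted p = 0.087) lost their calls.
Reads limit the members under about 0.1 RPKM, where 1 RPKM of a 1-kb model is 14.8 to 26.7 reads, and 1 vehicle library per region limits the test against vehicle.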
